A study of Homo sapiens with 2 samples.

Results

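The genes described here encode aminoacyl-tRNA synthetases, and 35 of them were taken by name, 19 with a cytosolic product and 16, whose symbols end in 2, with a mitochondrial product. A member was measured when a probe set of the array was paired with its symbol and with no other gene. This held for 32 of the 35, namely 17 cytosolic and 15 mitochondrial synthetases, among 19775 genes measured in all. MARS1, QARS1 and TARS2 had no such probe set, because theirs were paired with a microRNA gene as well, and no value is given for them.

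An aminoacyl-tRNA synthetase joins an amino acid to the tRNA that carries it to the ribosome. The cytosol and the mitochondria make protein on separate ribosomes, and for most amino acids human cells keep a separate nuclear gene for the enzyme of each compartment. Several cytosolic synthetases are held in a multisynthetase complex. When amino acids run short or unfolded protein accumulates, kinases phosphorylate eIF2alpha, and the transcription factor ATF4, whose mRNA is then better translated, is known to act on genes of amino acid synthesis, amino acid uptake and cytosolic tRNA charging.

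PC-3 is a line derived from a human prostate carcinoma that grows without androgen, and RD (Riccardin D) is a macrocyclic bisbibenzyl from a liverwort. The treated PC-3 culture received 10 µmol/L RD over 24 h. The control was PC-3 cells that the protocol describes as given the DMSO vehicle and the source name as not treated, and both were grown in RPMI medium with serum. The dose comes from the legend and supplement of the study, since the sample labels give none. Total RNA of each condition was hybridised to 1 Affymetrix HG-U133 Plus 2 array, so there is no spread between cultures, no p-value is given, and RD cannot be told apart from any other difference between the 2 cultures. RNA of a whole culture also cannot tell fewer expressing cells from less RNA per cell.

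The values are MAS5 signals, that is array intensities on a linear scale. Differences are given as log2 of the RD signal minus log2 of the control signal, and the brightest probe set stands for its gene. A difference of 2-fold or more was called higher or lower, provided that the brighter signal was no lower than 66.9, the median over every probe set and array, here named the floor. The only error these arrays offer is the scatter of the log2 difference among a gene's own probe sets. The SD of this scatter was 0.76 over 6518 genes with at least 2 probe sets at or above the floor, and 0.34 over 3382 such genes whose probe sets reached 377.4, which is the 75th percentile of the signals. For the synthetases with at least 2 probe sets at or above 377.4 it was 0.17 over 7 cytosolic genes and 0.13 over 5 mitochondrial genes.

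As a check of the cell type, the epithelial keratin KRT18 had signals of 10224.2 in control and 15416.6 in RD-treated cells, whereas the epithelial markers EPCAM and CDH1 and the leukocyte markers PTPRC and CD3E lay under the floor on both arrays. KRT8 was dim at 113.8 and 159.3. The prostate marker KLK3 had signals of 131.4 and 230.6, the endothelial marker PECAM1 of 121.6 and 72.7, and the fibroblast marker COL1A1 of 370.6 and 325.8, while COL1A2 lay under the floor on both arrays. What part these signals have in the results was not tested.

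Cytosolic synthetase genes had, for the most part, higher signals in RD-treated cells. Of 17 cytosolic genes, 3 were called higher and none lower, against 12.1% of all 12818 genes at or above the floor called higher and 13.3% called lower. The 3 genes, WARS1, GARS1 and EPRS1, are 17.6% of the class. Below 2-fold, 9 further cytosolic genes had a higher signal and 5 a lower one. The median log2 difference of the class was 0.49, beside -0.0022 for all genes.

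With only 17 genes, the counts at 2-fold do not stand clearly apart from the shares of the array. At 1.5-fold the distance was larger. By this threshold 8 of the 17 genes, or 47.1%, were higher, against 22.8% of all genes, and none was lower, against 24.7%. Every cytosolic gene had both signals above 377.4, so the brighter genes of the array are the closer reference. Of the 8094 genes with a signal at or above 377.4, 21.3% were higher and 23% lower at 1.5-fold, and 9.91% were higher and 10.9% lower at 2-fold. These shares describe 2 arrays and carry no test.

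**Figure D1:**
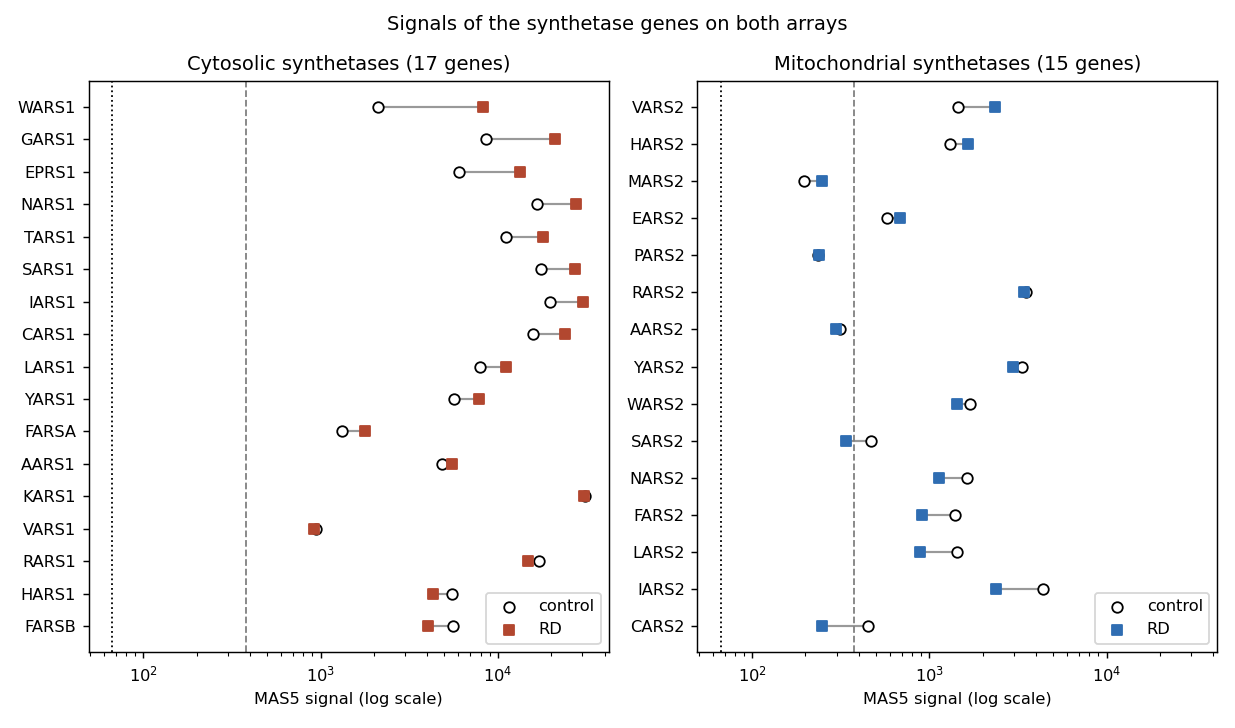
MAS5 signal (log scale) of each synthetase gene on the control array (open circles) and the RD array (filled squares), by compartment and ordered by the difference. The dotted line is the floor of 66.9 and the dashed line the 75th percentile of 377.4. The squares lie to the right of the circles for 12 of 17 cytosolic genes and for 5 of 15 mitochondrial genes.

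The largest difference among the synthetases was in WARS1, which charges tRNA with tryptophan and is also known as an interferon-inducible gene. Its signal went from 2102.4 in control to 8279.7 in RD-treated cells (3.94-fold higher), and its second probe set from 1816.5 to 8144.3. Both probe sets were therefore high on the RD array. Of all genes that reached the floor, 96.6% had a log2 difference below that of WARS1.

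GARS1 charges tRNA with glycine in the cytosol and in mitochondria, and mutations in it are a known cause of Charcot-Marie-Tooth neuropathy. Its 1 probe set had a signal of 8598 in control and 20932.3 in RD-treated cells, 2.43-fold higher. EPRS1, a fusion of the glutamyl and prolyl enzymes, belongs to the multisynthetase complex. Its signals were 6037 and 13269.8, 2.20-fold higher. The other probe sets of EPRS1 read 2066.7 to 4689 and 5501.1 to 12338.9, and all 3 lay between 1.14 and 1.18 on the log2 scale. Every probe set of GARS1 and EPRS1 carries a suffix that marks sequence shared between transcripts.

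Genes of the interferon response were listed after the value of WARS1 had been seen, and any part of interferon in that value was not tested. Of 12 listed genes 9 reached the floor, of which 1 was called higher and 3 lower, against 12.1% and 13.3% of all genes. PSMB9 was 3.11-fold lower, from 295.2 to 94.9, and was the only called gene of the list with both signals above the floor. GBP2 reached the floor only on the RD array, with signals of 22.6 and 104.7, at least 1.57-fold higher. GBP1 (at least 1.31-fold lower) and IDO1 (at least 1.23-fold) reached it only on the control array. IRF1 had signals of 388.6 and 487.8, IFIT1 of 428.8 and 500.4, and ISG15 of 1078.5 and 864. Of the 9 genes 4 had a higher and 5 a lower signal in RD-treated cells, with a median log2 difference of -0.32.

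Next came 5 cytosolic genes between 1.5-fold and 2-fold higher. NARS1 (asparagine) had signals of 16551.5 and 27700.6, a log2 difference of 0.74. TARS1 (threonine) had 11065.2 and 18016, a difference of 0.70. SARS1 (serine) had 17451.6 and 27262.5, a difference of 0.64. These are enzymes for small polar amino acids, all among the bright genes of the array. IARS1 (isoleucine), a member of the multisynthetase complex, had signals of 19653.7 and 30278.5, a difference of 0.62. CARS1 (cysteine) had 15705.7 and 23871.1, a difference of 0.60. Other probe sets were available for 3 of the 5. The second probe set of SARS1 stood at 0.59, and that of TARS1 went from 60.5, under the floor, to 202.3. The other 3 of CARS1 ranged from 0.05 to 0.88, all above 0. By its brightest probe set, each of these 5 genes differed by more than 0.34, the scatter between probe sets of bright genes, and by less than 0.76, the scatter at or above the floor.

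A smaller difference was seen in 4 more. LARS1 (leucine), which is also known as a leucine sensor for the kinase mTORC1, had signals of 7888.8 and 11075.3, a log2 difference of 0.49, with its 4 probe sets between 0.18 and 0.61. YARS1 (tyrosine), of which secreted fragments are known to act as cytokines, had 5646.4 and 7872.4, a difference of 0.48, while its dim second probe set stood at 0.05. FARSA, the catalytic subunit of the phenylalanine enzyme, had 1320.9 and 1776, a difference of 0.43, but -0.15 by its other probe set. AARS1 (alanine) had 4852.9 and 5490, a difference of 0.18.

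The remaining 5 cytosolic genes had a lower signal on the RD array. The signals were 31080.2 and 30614.5 for KARS1, the lysine enzyme of both compartments. They were 945.4 and 917.7 for VARS1 (valine), whose second probe set stood at 0.13. Both genes were within 0.05 of 0 by their brightest probe set, and KARS1 was above 0 (0.02) after quantile normalization. RARS1 (arginine), a complex member, had signals of 17107.7 and 14769.3, a log2 difference of -0.21. HARS1 (histidine) had 5551.5 and 4335.8, a difference of -0.36. FARSB, the partner subunit of FARSA in the same enzyme, had 5576.6 and 4019, a difference of -0.47. The brightest probe sets of the 2 subunits of the phenylalanine enzyme thus lay on opposite sides of 0, with the other probe sets of FARSB, both dim, at -0.11 and 0.72.

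**Figure D2:**
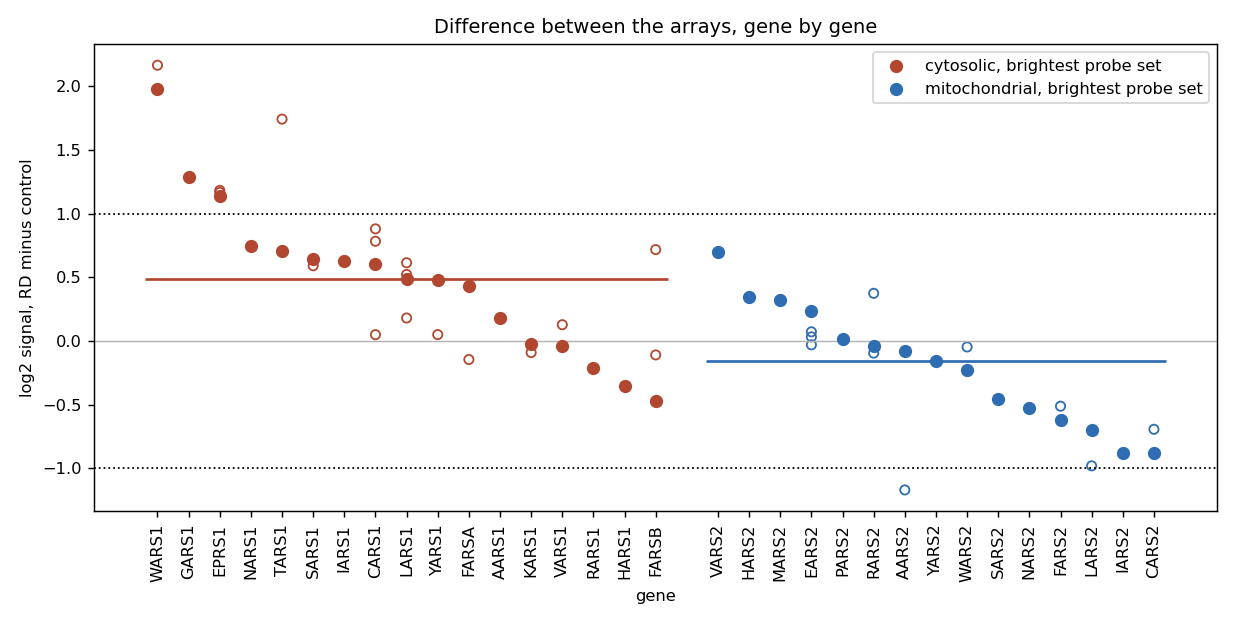
Log2 difference (RD minus control, vertical) of each synthetase gene. Filled points are the brightest probe set, open points the other probe sets that reached the floor, horizontal bars the class medians (0.49 and -0.16), and dotted lines 2-fold. The open point of TARS1 has a control signal under the floor. WARS1, GARS1 and EPRS1 lie above the upper dotted line, and no brightest probe set lies below the lower one.

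Mitochondrial synthetase genes had, for the most part, slightly lower signals in RD-treated cells. Of 15 genes, none was called higher or lower, against 12.1% and 13.3% of all 12818 genes at or above the floor. A higher signal in RD-treated cells was seen in 5 and a lower one in 10, beside 6390 and 6425 of all genes. The median log2 difference was -0.16, beside -0.0022 for all genes. At 1.5-fold, 4 genes (26.7%) were lower and 1 (6.67%) was higher, against 24.7% and 22.8% of all genes. The share that was lower is thus close to that of the whole array.

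The 4 lower genes were CARS2, IARS2, LARS2 and FARS2. CARS2 (cysteine) had signals of 454 and 247.1, a log2 difference of -0.88, and -0.69 by its second probe set at or above the floor. IARS2 (isoleucine), with 1 probe set, had 4385.8 and 2387.7, a difference of -0.88. LARS2 (leucine), a gene mutated in Perrault syndrome, had 1435.5 and 883.6, a difference of -0.70, and -0.98 by its second probe set. FARS2 (phenylalanine) had 1400 and 908.8, a difference of -0.62, and -0.51 by its second probe set. In the 3 genes with a second probe set at or above the floor, it was also lower on the RD array.

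Smaller negative differences were seen in NARS2, SARS2, WARS2, YARS2, AARS2 and RARS2. NARS2 (asparagine) had signals of 1636 and 1135.7, a log2 difference of -0.53. SARS2 (serine) had 467.6 and 341, a difference of -0.46. WARS2 (tryptophan) had 1686.7 and 1440.8, a difference of -0.23. Of the other 3, YARS2 (tyrosine), mutated in a myopathy with sideroblastic anaemia, had 3332.5 and 2980.9. AARS2 (alanine) had 314.5 and 297, and its dimmer probe set 213.2 and 94.7, a log2 difference of -1.17 that is past 2-fold. The median over its probe sets was -0.63, so its small difference depends on the probe set. RARS2 (arginine) had 3515.2 and 3417.1, and its median over probe sets was above 0 (0.03). By the brightest probe set, the log2 differences of these 3 genes were -0.16, -0.08 and -0.04. YARS2 and RARS2 differed by less than 0.34, the scatter between probe sets of bright genes, and AARS2 was dimmer than those genes. This scatter does not measure the spread between cultures.

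Of the 5 mitochondrial genes with a higher signal, VARS2 (valine) was the only one past 1.5-fold, from 1443.8 to 2338.7, a log2 difference of 0.70. HARS2 (histidine), like LARS2 a Perrault syndrome gene, had 1313.2 and 1664.3, a difference of 0.34. MARS2 (methionine) was dim, with 197.5 and 247.1, a difference of 0.32. EARS2 (glutamate) had 580 and 680.9, a difference of 0.23, with its other probe sets between -0.03 and 0.07. PARS2 (proline) had 235.8 and 238.6, a difference of 0.02 that was -0.0052 after centring on the median and -0.03 after quantile normalization.

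**Figure D3:**
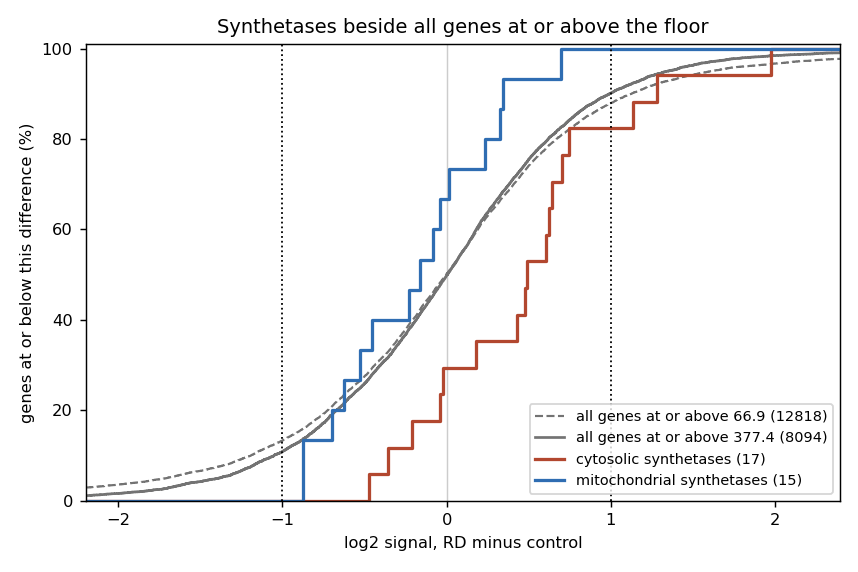
Percentage of genes (vertical) at or below each log2 difference (RD minus control, horizontal). Grey curves are all genes at or above the floor of 66.9 (dashed) and at or above 377.4 (solid), and coloured steps are the 17 cytosolic and 15 mitochondrial synthetases. The cytosolic steps lie to the right of both grey curves from the lowest gene up to TARS1 (0.70), and the mitochondrial steps lie near them in the lower part and to their left in the upper part.

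The median of the cytosolic genes exceeded that of the mitochondrial genes by 0.65 on the log2 scale. Genes are not replicates of a condition, so this gap is a description. Mitochondrial synthetases were dimmer, with both signals at or above 377.4 in 10 of 15 genes and in all 17 cytosolic ones. Over those 10 and 17 genes the gap was 0.68. The gap depended on the choice of probe set. With only probe sets whose names mark no shared sequence, EPRS1, GARS1, IARS1, LARS1 and VARS1 had no value and FARSA turned to -0.15. YARS1 and FARSB were then read from dim probe sets, at 0.05 and -0.11. By this choice the cytosolic median was 0.11 over 12 genes, and the gap was 0.27. Of 11 cytosolic genes with at least 2 probe sets at or above the floor, these lay on 1 side of 0 in 8 and on both sides in 3, namely FARSA, FARSB and VARS1. Of 7 such mitochondrial genes they lay on 1 side in 5, and on both sides in EARS2 and RARS2.

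Compared amino acid by amino acid, the cytosolic gene usually had the higher log2 difference. A total of 15 pairs of a cytosolic and a mitochondrial gene, for 14 amino acids, could be formed, with EPRS1 and FARS2 each standing in a pair more than once. In 12 of the 15 pairs the difference of the cytosolic gene was above that of its mitochondrial counterpart, by at least 1 on the log2 scale in 8. In 9 pairs the cytosolic gene was above 0 while the mitochondrial gene was below 0. Among the 8 wider gaps, IARS1, LARS1, EPRS1 and FARSA rest on probe sets with the shared-sequence suffix. CARS2, SARS2 and PARS2, also among them, had a signal below 377.4 on at least 1 array. The widest gap, 2.20, was between WARS1 and WARS2, followed by 1.5 for IARS1 and IARS2, 1.48 for CARS1 and CARS2 and 1.27 for NARS1 and NARS2. The gap ran the other way in 3 pairs. It was 0.74 between VARS2 and VARS1, 0.70 between HARS2 and HARS1, and 0.17 between RARS2 and RARS1.

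**Figure D4:**
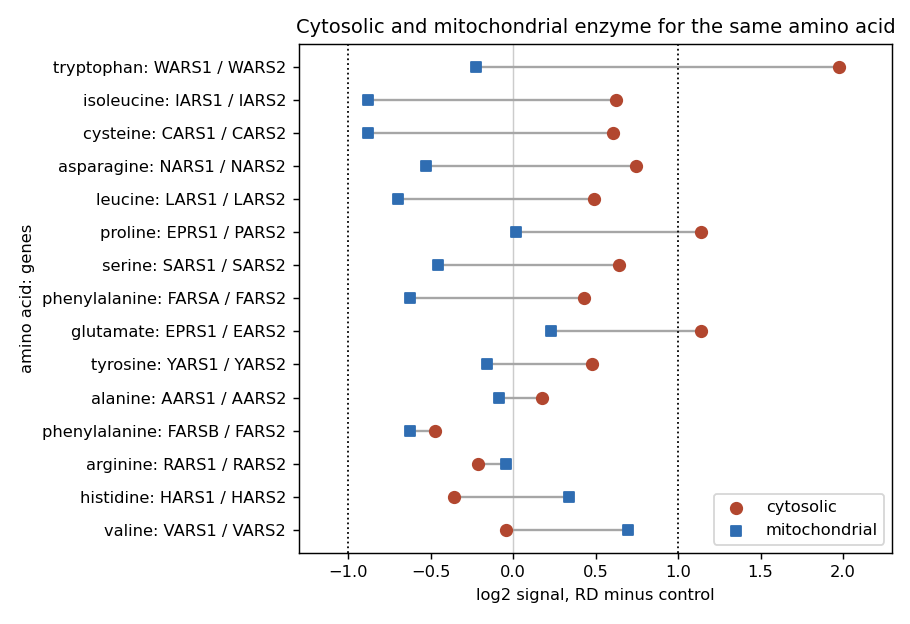
Log2 difference (RD minus control, horizontal) of the cytosolic (circles) and mitochondrial gene (squares) for the same amino acid, ordered by the gap. Dotted lines mark 2-fold. The circle lies to the right of the square in 12 of 15 pairs, with histidine, valine and arginine the exceptions.

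The pair HARS1 and HARS2 is shown in sequence because both genes start from the same short stretch of chromosome 5 and are transcribed away from each other, HARS1 on the minus and HARS2 on the plus strand. In the RefSeq starts of GRCh38.p14, 84 bases separate the 2 starts, at chr5:140691371-140691454, printed here on the plus strand.
HARS1 and HARS2, between the starts: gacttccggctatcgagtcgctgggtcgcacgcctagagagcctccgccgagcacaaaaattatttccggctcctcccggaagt
From this stretch the signal of HARS1 was 1.28-fold lower and that of HARS2 1.27-fold higher in RD-treated cells. Each gene had 1 probe set, and each difference was close to the scatter of 0.34 between probe sets of bright genes.

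Promoters of the members were searched for an element of the type ATF4 binds together with C/EBP proteins, TGATGNAA on either strand, in the 250 bases before each RefSeq start (GRCh38.p14). Of the 35 members, 30 were in the promoter table, and 4 of them (13.3%) held a match, against 3.89% of 27305 genes. Among them were 3 of 16 cytosolic genes, GARS1, IARS1 and AARS1, and 1 of 14 mitochondrial genes, YARS2. The stretches are printed along the strand of the gene, with the match in capitals, to set the element beside the signals. The AARS1 stretch is chr16:70289650-70289729 (minus strand), IARS1 chr9:92293698-92293777 (minus strand), GARS1 chr7:30594834-30594863 (plus strand) and YARS2 chr12:32756051-32756130 (minus strand). The GARS1 match precedes the more downstream of 2 listed starts and is shown with few flanking bases, since it lies within the transcript of the other start.
GARS1: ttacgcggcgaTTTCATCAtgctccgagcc
IARS1: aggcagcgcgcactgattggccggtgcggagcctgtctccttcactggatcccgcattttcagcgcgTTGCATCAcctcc
AARS1: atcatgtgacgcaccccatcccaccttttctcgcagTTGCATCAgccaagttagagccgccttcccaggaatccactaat
YARS2: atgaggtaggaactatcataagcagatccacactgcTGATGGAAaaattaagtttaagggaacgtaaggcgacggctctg

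In IARS1 and AARS1 the match, read on the opposite strand, had the form TGATGCAA, which 0.967% of all genes held. The 4 genes did not share a level of difference, since GARS1 stood at 1.28, IARS1 at 0.62, AARS1 at 0.18 and YARS2 at -0.16. The other called genes, EPRS1 and WARS1, had no match in their windows, of which the 80 bases before the most upstream listed start are printed for comparison, at chr1:220046506-220046585 for EPRS1 and chr14:100376328-100376407 for WARS1, both on the minus strand.
EPRS1: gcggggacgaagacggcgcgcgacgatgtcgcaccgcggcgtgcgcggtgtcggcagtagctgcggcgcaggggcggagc
WARS1: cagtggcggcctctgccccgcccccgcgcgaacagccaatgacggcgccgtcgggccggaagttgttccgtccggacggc
Across the array, 259 genes at or above the floor had the element, of which 17.8% were called higher and 12.7% lower, and 10156 genes in the table had none, of which 11.7% were called higher and 13% lower. A match is a run of letters and not a shown binding site.

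The medians of the structural families lay closer together than those of the compartments. Class I and class II synthetases have unrelated catalytic folds, and EPRS1, which joins both, is counted in neither. Among cytosolic genes the median log2 difference was 0.49 over 7 class I genes and 0.43 over 9 class II genes, with 1 called higher in each. Among mitochondrial genes it was -0.16 over 9 class I genes and -0.27 over 6 class II genes. The 5 measured synthetases of the multisynthetase complex (EPRS1, IARS1, KARS1, LARS1 and RARS1) had a median of 0.49 and ranged from -0.21 to 1.14, and the 12 cytosolic genes outside it had a median of 0.54. AIMP1, a scaffold protein of the complex, had signals of 4737.7 and 5961.3, a difference of 0.33.

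The genes around tRNA charging were counted from lists. Of 10 genes listed for the amino acid response, 6 were called higher and 1 lower, against 12.1% and 13.3% of all genes, with a median of 1.36. What part a shortage of amino acids or unfolded protein had in these values was not tested. ATF3 was 11.5-fold and DDIT3 7.84-fold higher, and at the other end ATF5 was 2.25-fold lower and EIF2AK4, the gene of the uncharged-tRNA sensor GCN2, had signals of 1068.8 and 696.6. The mRNA of ATF4 itself, named for its part in the pathway, was 2.12-fold higher, from 18594.1 to 39419.6, and that of its partner CEBPG was 4.15-fold higher, from 1318.6 to 5474.7. These lists were chosen with such values already known.

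Of 9 cytosolic elongation and termination genes, 1 was called higher and none lower, again beside 12.1% and 13.3% of all genes, with a median of 0.09. This was PELO, a factor that rescues stalled ribosomes, which went from 2912.2 to 12861.7 (4.42-fold), and whose gene overlaps ITGA1, so that its signal is uncertain. Of 13 genes of mitochondrial translation, including the amidotransferase that makes mitochondrial glutaminyl-tRNA, none was called, and the median was -0.03. TUFM, the mitochondrial elongation factor, had signals of 8870.4 and 6286.3. Of 21 genes of tRNA processing and export, XPOT, the exportin that carries tRNA out of the nucleus, was 2.44-fold higher, from 7112.7 to 17364.3. In the same list POP1 was 2.99-fold lower, POP5 was 2.23-fold lower, and RPP25, whose signals were 82.6 and 10.1, was lower by at least 1.23-fold. All of these 3 encode subunits of the nuclease that trims the leader of tRNA precursors, but its subunits went both ways. Of the others measured, RPP38 and RPP14 were higher, at 0.81 and 0.39 on the log2 scale. RPP30, RPP40, POP4 and POP7 lay between -0.59 and -0.25, and none of these others was called. The median of the list was -0.25. The 1 gene higher and 3 lower of these 21 stand beside 12.1% and 13.3% of all genes, and the share that was lower is near that of the array.

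**Figure D5:**
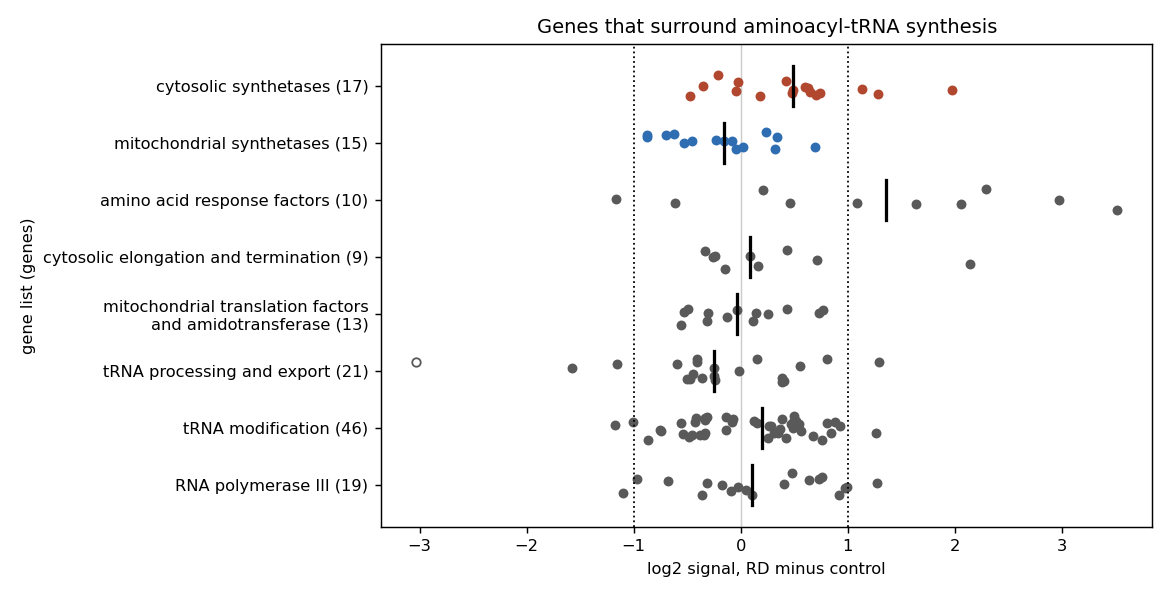
Log2 difference (RD minus control, horizontal) of the synthetases and of genes around tRNA charging that reached the floor, with the count per list in brackets. Vertical bars are medians, 2-fold is dotted, and the single open circle is RPP25, which was under the floor on the RD array. The cytosolic synthetases (median 0.49) and the amino acid response factors (1.36) have their medians to the right of the other lists.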

How the data were processed

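The authors deposited, for 1 HG-U133 Plus 2 array per condition, an intensity per probe set on a linear scale, which is a MAS5 signal per the labels. The MAS5 version (and target value) was not given in the sources used here. MAS5 corrects for mismatch probes, so dim signals are noisy. The means without the outer 2% of probe sets were 495.8 (control) and 495.9 (RD), and no further scaling was applied. Of 54613 probe sets, 41091 had 1 gene in the platform annotation, 1801 were left out for having several, and 11721 had no name in it. RefSeq gene IDs changed no symbol. The number of arrays limits the precision, and no statistical test between the conditions was made. The members, lists, thresholds and alternatives were chosen with earlier results of these data known. All measured members are named. Of other lists, called genes are named where there are at most 4, and otherwise the 2 at each end. ATF4, CEBPG, IRF1, IFIT1, ISG15, TUFM, the uncalled subunits of the leader nuclease and the interferon list were added after their values were seen. The printed sequences other than that of GARS1 were also chosen after their values were seen. The class counts, class medians, their gap and the difference of each synthetase were recomputed under 11 other settings and 1 chosen after seeing the data, whereas the other lists, the pairs and the promoter shares were not. The code that makes the 2-fold calls was checked on simulated data. Protein sequences, intended for 1 pair of enzymes, were not used here. Promoter sequences are those of RefSeq for GRCh38.p14. Calculations ran in Python 3.11.15 with pandas 2.3.3 and numpy 2.4.6, and plots in matplotlib 3.10.9.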

Additional observations from a re-analysis of the deposited data

How the results depend on the processing

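The count of cytosolic genes called higher was 3 of 17, beside 12.1% of all genes. It was 8 of 17 at a threshold of 1.5-fold, beside 22.8%, and 1 of 17 at 3-fold. With probe sets that mark no shared sequence it was 1 of 12, a share below 12.1%, since EPRS1 and GARS1 then had no value. Shares of all genes were taken only from the brightest probe set, at 1.5-fold and 2-fold. At 1.5-fold the mitochondrial counts were 1 higher and 4 lower of 15, beside 22.8% and 24.7% of all genes. Taking each gene's median probe set value added TARS1, giving 4. The cytosolic median lay between 0.11 (no shared sequence) and 0.53 (quantile normalization), the mitochondrial median between -0.34 (floor at the 75th percentile) and -0.15 (quantile normalization), and the gap between 0.27 (no shared sequence) and 0.83 (floor at the 75th percentile), all with the direction reported. Leaving out GARS1 and KARS1, whose products serve both compartments, left the medians at 0.49 and -0.16. As GARS1 is a called gene, 2 of 15 cytosolic genes were then called higher, near the 12.1% of all genes. Of single genes, KARS1, PARS2, VARS1, RARS2 and FARSA changed sign under an alternative, none of them a called gene. With 1 array per condition, no replicate could be left out.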

Other observations

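Genes that modify or transcribe tRNA were mixed. Of 46 tRNA modification genes at or above the floor, 1 was called higher and 2 lower, fewer in each direction than the 12.1% and 13.3% of all genes, and the median log2 difference was 0.20. TRMT1, a guanine methyltransferase of tRNA, was 2.41-fold higher, from 565.6 to 1360.3. LAGE3, a subunit of the complex that makes threonylcarbamoyladenosine, had signals of 2462.5 and 1093.1 (called lower), and the cysteine desulfurase NFS1 was 2.00-fold lower. Of 19 genes of RNA polymerase III and its factors, 1 was called higher and 1 lower, with a median of 0.10. With so few genes these counts do not stand apart from the same 12.1% and 13.3%. The subunit gene POLR3D was 2.42-fold higher, from 211.6 to 512.2, and POLR3GL was 2.14-fold lower, from 2809.1 to 1311.4. The 3 measured genes of aminoacyl-tRNA quality control, DTD1, DTD2 and PTRHD1, had log2 differences of -0.80, -0.39 and -0.74, and none was called.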
